A study of Macaca fascicularis with 2 samples.

Results

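ATM, ATR, PRKDC, CHEK1, CHEK2, BRCA1, BRCA2 and TP63 are the kinases, repair proteins and effector through which a cell detects broken DNA and either repairs it or is removed. They were chosen by name, with earlier results of these data known, and all 8 are among the 18446 genes of the table, with 1 row each. The data are single-cell RNA profiles of whole fetal ovaries of the cynomolgus monkey (Macaca fascicularis) from 1 female fetus at embryonic day 84 and 1 at embryonic day 116, made with the droplet-based 3′ kit, v3, of 10x Genomics. Both ovaries of a fetus were digested together into 1 library, no treatment is reported for either fetus, and no label gives a strain. The table pools both libraries. Cell barcodes end in 1 or 2 and are not tied to an age, so nothing is reported by age. The endings serve only as unlabelled sets of cells, which may differ in animal and age. With 1 pooled sample there is no replicate, no test and no p-value. Levels are summed unique molecular identifiers (UMIs) of a group scaled to a common library total (CPM, counts per 1000000) with an exact 95% Poisson interval in parentheses, which covers counting error only and not the difference between animals.

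Meiosis needs broken DNA. In meiotic prophase the germ cell cuts its own chromosomes and repairs the cuts from the homologous chromosome, and ATM and ATR watch over this and signal through CHEK2 and CHEK1. BRCA1 and BRCA2 prepare the broken ends and load the recombinases, while PRKDC serves end joining, a route that rejoins ends without a template. In oocytes, TP63 is the guard at the end of this path: it is held inactive until CHEK2 and other kinases switch it on, and an oocyte with unrepaired breaks is then lost.

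Germ cells were set in order by markers that are not among the 8 genes. Of 6269 germ cell-like cells, 252 were mitotic-like (NANOG, TFAP2C, PRDM1), 1453 premeiotic-like (STRA8, ZGLP1, REC8), 1280 meiotic-like (SYCP1, DMC1, SPO11) and 684 oocyte-like (FIGLA, GDF9, ZAR1). Because these markers gave the names, their sums describe the steps and do not test them. The meiotic list summed to 5387 CPM in meiotic-like cells against 162 to 558 CPM in the other steps. The oocyte list summed to 2365 CPM in oocyte-like cells against 6.75 to 196 CPM. Names were rebuilt from markers and need not match those of the study, and 1307, 826 and 467 germ cells in 3 sub-clusters stayed unnamed. Median depth was 11861.5 UMIs per cell in mitotic-like, 5911 in premeiotic-like, 2798 in meiotic-like and 2878.5 in oocyte-like cells. The endings were spread unevenly: 249 of the mitotic-like cells end in 1 and 664 of the oocyte-like cells end in 2, so at both ends of the order the step and the set cannot be told apart. Premeiotic-like and meiotic-like cells had at least 239 cells in each set and are given within both. Granulosa markers summed to 43.9 to 103 CPM in the 4 steps against 1120 CPM in granulosa-like cells. FST alone gave 68.5 of the 103 CPM, in meiotic-like cells, where AMHR2 and KITLG were 5.15 and 7.66 CPM against 196 and 310 CPM in granulosa-like cells. Markers of other classes were uneven too. Hemoglobin HBB was 1423, 817, 1624 and 46.3 CPM over the 4 steps, against 468575 CPM in erythroid-like cells. COL1A1 was 104, 94.4, 125 and 55.8 CPM, against 10413.6 CPM in stroma-like cells. The part of these RNAs in the results was not tested, and 27 barcodes occur with both endings.

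The 8 genes did not follow a common course. TP63 was mainly in oocytes, CHEK2 and PRKDC were highest just before meiosis, and BRCA2 was highest within it. BRCA1 was also highest in meiotic-like cells, but their shallower sub-cluster overlapped premeiotic-like cells. ATM alone was as high in granulosa as in meiotic germ cells. Germ cell-like cells made up 29.9% of all cells and held 51047229 of the 148824177 UMIs of all genes. They held 90.6% of the TP63 UMIs, 82.5% of the BRCA2 UMIs, 69.5% of the BRCA1 UMIs and 67.8% of the CHEK1 UMIs. PRKDC had 59.6% of its UMIs there, CHEK2 49.6% and ATR 48.6%, against 30.0% for ATM. The 3 unnamed germ cell sub-clusters lay within the range of the named steps, with BRCA2 at 114 to 177 CPM, BRCA1 at 138 to 191, CHEK1 at 96.4 to 119, PRKDC at 369.9 to 480.1 and TP63 at 3.47 to 6.38. Erythroid-like cells, in which hemoglobin leaves a median of 299 detected genes, had the lowest level of every member but TP63 among the named groups, with ATM at 5.05 CPM and PRKDC at 22.1.

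**Figure D1:**
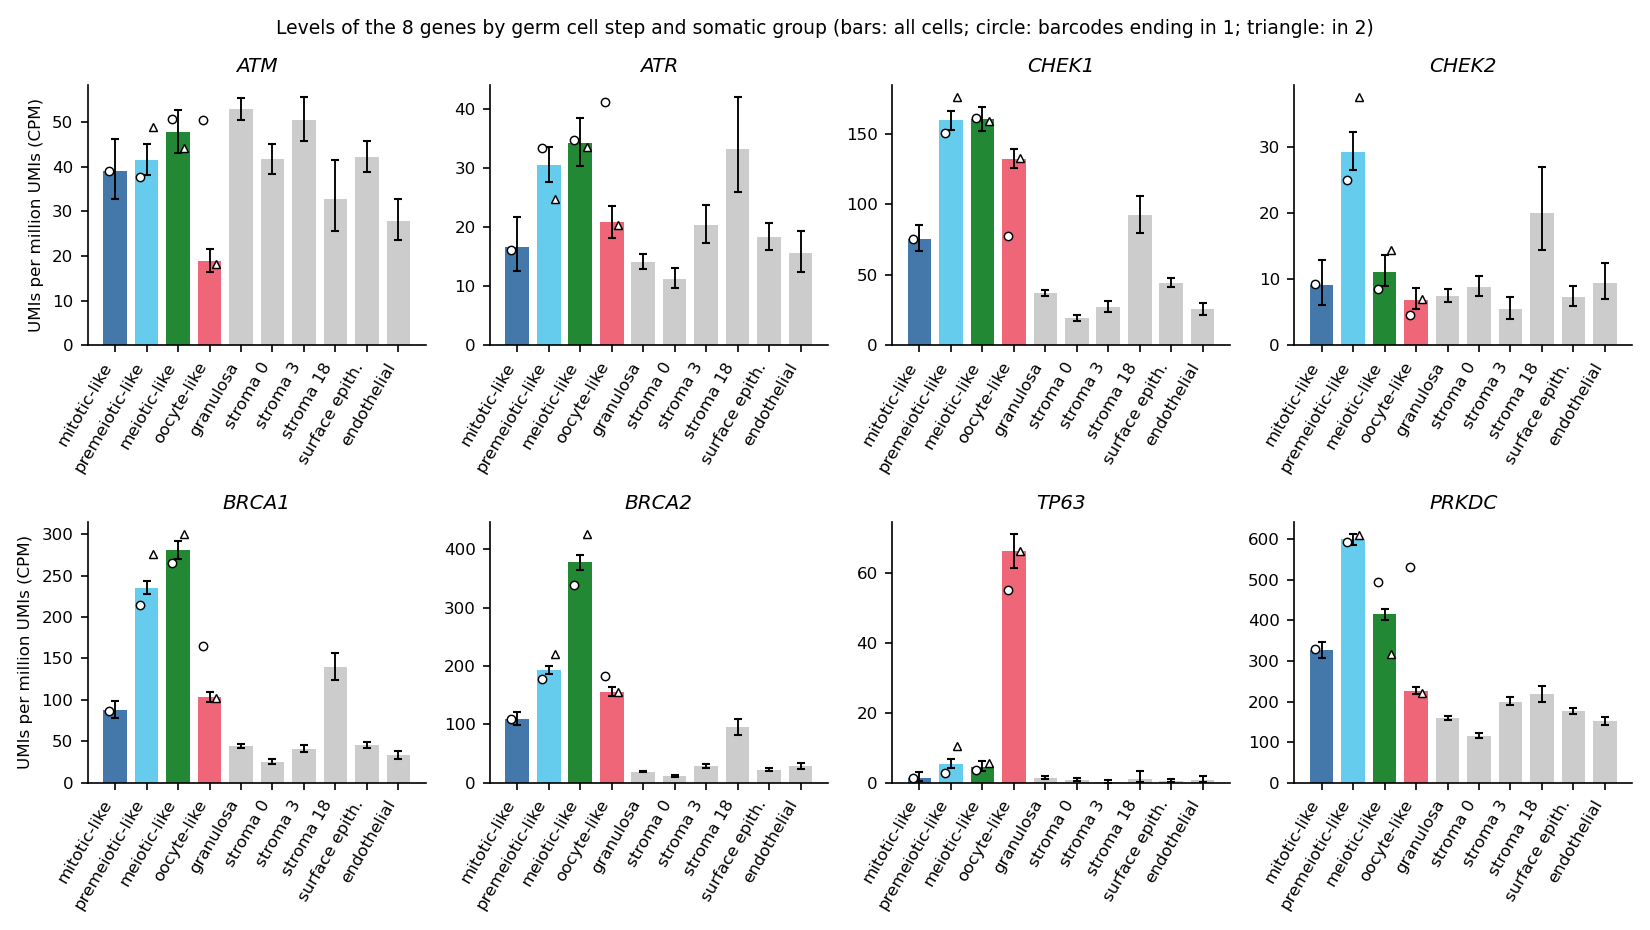
Level of each of the 8 genes in the 4 germ cell steps and in granulosa, stroma, surface epithelium and endothelial groups. Bars are summed UMIs scaled to a common total (CPM) with exact 95% Poisson intervals, circles the cells with barcodes ending in 1 and triangles those ending in 2, for groups of at least 20 cells. TP63 stands at 66.04 CPM in oocyte-like cells and under 6 CPM in the other groups shown, while ATM is level across most groups and low in oocyte-like cells.

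ATM, the kinase that double-strand breaks recruit, varied little until the oocyte over all cells. Its level was 39.0 CPM (32.7–46.3) in mitotic-like, 41.5 (38.2–45.1) in premeiotic-like, 47.6 (43.1–52.6) in meiotic-like and 18.8 (16.4–21.6) in oocyte-like cells. The first 3 steps overlap with their neighbours, and also with stroma-like cells at 43.7 CPM and surface epithelium-like cells at 42.1 CPM. From mitotic-like to premeiotic-like cells the ATM log2 ratio was 0.09 over all cells. Across 12 alternatives it ranged from −0.21 to 1.31 and kept its sign in 4, so no direction is given there. Granulosa-like cells had 52.9 CPM (50.5–55.4), and the highest level was in an unnamed cluster of 801 cells led by CBLN2 and LYPD1, at 72.5 CPM (67.3–78.1). From meiotic-like to oocyte-like cells the log2 ratio was −1.34 (−1.59 to −1.09), a level 2.53 times lower. That drop was seen among cells ending in 2 (44.1 to 18.2 CPM), whereas the 20 oocyte-like cells ending in 1 held 11 ATM UMIs, 50.4 CPM, level with the 50.5 CPM of meiotic-like cells of that set. From premeiotic-like to meiotic-like cells the sets differed in sign, with a log2 ratio of 0.42 (0.17 to 0.67) in ending 1 and −0.15 (−0.45 to 0.15) in ending 2, so no direction is given for that step.

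ATR answers to single-stranded DNA at stalled forks and resected breaks. It was 16.7 CPM (12.7–21.7) in mitotic-like, 30.5 (27.6–33.6) in premeiotic-like, 34.2 (30.4–38.4) in meiotic-like and 20.8 (18.2–23.7) in oocyte-like cells, against 14.1 (12.9–15.5) in granulosa-like cells. Premeiotic-like and meiotic-like cells overlap at the top, and mitotic-like cells cannot be told from stroma-like cells at 16.0 CPM. Into the oocyte the ATR log2 ratio was −0.72 (−0.97 to −0.46) over all cells and −0.72 in ending 2, but 0.25 (−0.91 to 1.21) in ending 1. ATRIP, its obligate partner, was likewise highest in premeiotic-like and meiotic-like cells, at 27.0, 38.1, 40.3 and 25.9 CPM over the 4 steps and 13.1 CPM in granulosa-like cells. Between meiotic-like and granulosa-like cells, ATR had a log2 ratio of 1.28 (1.06 to 1.49) and ATM one of −0.15 (−0.31 to 0.01). ATM UMIs per ATR UMI therefore went from 3.74 (3.38–4.15) in granulosa-like cells to 1.39 (1.19–1.63) in meiotic-like and 0.905 (0.747–1.10) in oocyte-like cells. These are ratios of counts followed between groups, and they do not say which of the genes is more abundant.

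PRKDC, the catalytic subunit of DNA-PK, is a gene that the study itself discusses. Its level was 327 CPM (309–347) in mitotic-like, 599.8 (587–613) in premeiotic-like, 415 (402–429) in meiotic-like and 226 (217–235) in oocyte-like cells, with 159 (155–163) in granulosa-like cells. No neighbouring steps overlap, and premeiotic-like cells had 595 CPM in ending 1 and 609.9 in ending 2. With 3 mitotic-like cells in ending 2, the step before it was not compared in that set. Within premeiotic-like cells, sub-clusters 4 and 10 had 608 and 630.1 CPM and the shallower sub-cluster 3 had 489. The step into meiosis was smaller in ending 1, with a log2 ratio of −0.27 (−0.34 to −0.20), than in ending 2, with −0.94 (−1.04 to −0.84). The step into the oocyte depended on the set: −0.88 (−0.95 to −0.80) over all cells, −0.53 (−0.63 to −0.43) in ending 2, and 0.11 (−0.18 to 0.38) in ending 1 with its 20 oocyte-like cells. XRCC5 and XRCC6, the Ku subunits that bring DNA-PK to a DNA end, also peaked in premeiotic-like cells, at 626 and 757 CPM, and were lowest in oocyte-like cells for XRCC5 (209 CPM) but in mitotic-like cells for XRCC6 (323 CPM). So the 3 parts of DNA-PK shared their highest step and not their lowest.

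CHEK1, the kinase downstream of ATR that holds back division, differed most between mitotic-like and premeiotic-like cells and little after that. It was 75.7 CPM (66.8–85.5) in mitotic-like, 159.7 (153–167) in premeiotic-like, 161 (152–169) in meiotic-like and 132 (126–139) in oocyte-like cells. Granulosa-like cells had 37.1 CPM (35.1–39.2), and the named somatic classes lay between 7.97 and 44.5 CPM. Premeiotic-like and meiotic-like cells cannot be told apart, with a log2 ratio of 0.01 (−0.09 to 0.11). The step before it was 1.08 (0.89 to 1.27), just past 2-fold, and fell short of 2-fold in 4 of 12 alternatives, the lowest being 0.71. Of the 8 genes, CHEK1 kept the most of its meiotic-like level in the oocyte apart from TP63, with a log2 ratio of −0.28 (−0.39 to −0.17) over all cells and −0.26 in ending 2. Among the 20 oocyte-like cells ending in 1 it was −1.05 (−1.84 to −0.36). Within oocyte-like cells it was 137 CPM (129.5–144) in the deeper sub-cluster 8 (median 19452.5 UMIs) and 77.0 (59.0–98.7) in the shallower sub-cluster 6 (median 1110.5 UMIs).

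CHEK2, the kinase downstream of ATM and the one that marks TP63 for activation in mouse oocytes, had a peak of a single step. Its level was 9.10 CPM (6.18–12.9) in mitotic-like, 29.3 (26.5–32.4) in premeiotic-like, 11.1 (8.99–13.6) in meiotic-like and 6.91 (5.45–8.63) in oocyte-like cells, the last level with the 7.50 CPM (6.61–8.48) of granulosa-like cells. From premeiotic-like to meiotic-like cells the log2 ratio was −1.40 (−1.74 to −1.07), and it was alike in the sets, at −1.57 (−2.10 to −1.07) in ending 1 and −1.38 (−1.85 to −0.94) in ending 2. The peak was in all 3 premeiotic-like sub-clusters, at 20.0, 26.3 and 38.7 CPM in sub-clusters 3, 4 and 10. After each cell was thinned to 2000 UMIs, a CHEK2 UMI was found in 4.30% (3.20–5.64) of 1140 premeiotic-like cells and in 1.97% (1.13–3.17) of 814 meiotic-like cells, with 313 and 466 shallower cells left out. Before thinning the shares were 19.5% and 6.17%. The log2 ratio of the thinned counts was −0.91 at 2000 UMIs and −2.58 at 1000 UMIs per cell, and the step from mitotic-like to premeiotic-like cells, 1.69 over all cells, was 0.56 within the limit of 3000 detected genes. CHEK1 UMIs per CHEK2 UMI accordingly went from 5.44 (4.89–6.07) in premeiotic-like to 14.4 (11.7–17.99) in meiotic-like and 19.1 (15.2–24.4) in oocyte-like cells. From meiotic-like to oocyte-like cells the CHEK2 log2 ratio was −0.69 (−1.14 to −0.24), at −0.88 (−6.22 to 1.68) in ending 1 from 1 UMI in oocyte-like cells and −1.05 (−1.57 to −0.52) in ending 2. It was below 0 in 12 of 13 alternatives, the exception being 1.19 (−0.71 to 3.10) after thinning to 1000 UMIs, which left 6 CHEK2 UMIs in each step.

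**Figure D2:**
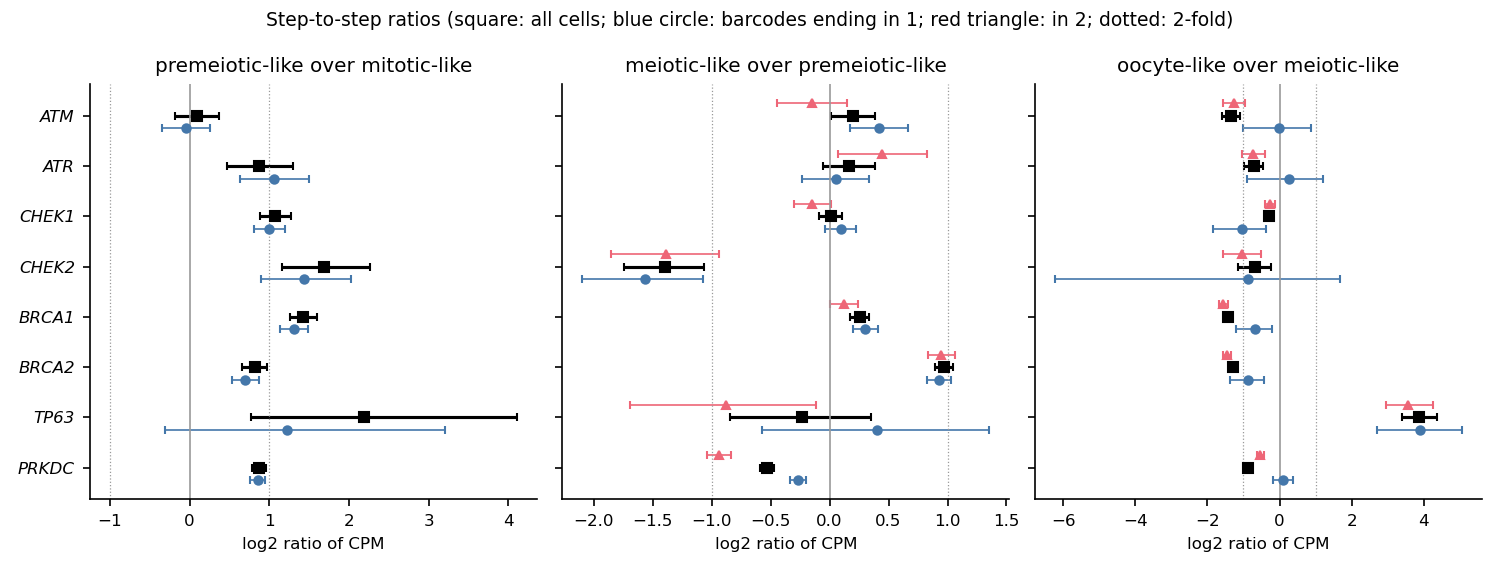
Log2 ratios of the 8 genes between neighbouring germ cell steps. Squares are all cells, blue circles the cells with barcodes ending in 1, red triangles those ending in 2, lines the exact 95% intervals and dotted lines a difference of 2-fold. CHEK2 lies at −1.40 from premeiotic-like to meiotic-like cells and TP63 at 3.86 from meiotic-like to oocyte-like cells, while the ATM and PRKDC ratios into the oocyte differ between the sets.

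BRCA1, which with BARD1 forms a ubiquitin ligase that promotes end resection and repair by homologous recombination, was 87.7 CPM (78.1–98.3) in mitotic-like, 236 (228–244) in premeiotic-like, 281 (269.7–293) in meiotic-like and 103 (97.6–109.6) in oocyte-like cells. Granulosa-like cells had 43.8 CPM (41.6–46.0). The large step was the one into the premeiotic-like state, with a log2 ratio of 1.43 (1.25 to 1.60), and the next added 0.25 (0.18 to 0.33). Into the oocyte it was −1.44 (−1.54 to −1.34) over all cells, −1.55 (−1.68 to −1.43) in ending 2 and −0.68 (−1.21 to −0.21) in ending 1. Meiotic-like sub-clusters differed in BRCA1. In the shallower sub-cluster 1 it was 225 CPM (207–244) in 842 cells without a FIGLA UMI and 269 (210–339) in 77 cells with one. Both overlap premeiotic-like cells. In the deeper sub-cluster 7 it was 380 CPM (353–409) without FIGLA and 271 (255–289) with it.

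From premeiotic-like cells on, BARD1 ran against its partner. It was 51.9 CPM (44.6–60.2) in mitotic-like, 69.6 (65.2–74.2) in premeiotic-like, 24.3 (21.1–27.9) in meiotic-like and 105 (99.2–111) in oocyte-like cells. Into the premeiotic-like state both were higher, whereas in meiotic-like cells BARD1 was lowest and BRCA1 highest. From premeiotic-like to meiotic-like cells the BARD1 log2 ratio was −1.52 (−1.74 to −1.30), at −1.59 in ending 1 and −1.35 in ending 2, while that of BRCA1 was 0.30 and 0.12. Into the oocyte BARD1 had a ratio of 2.11 (1.90 to 2.34), at 1.15 in ending 1 and 2.16 in ending 2, and was past 2-fold higher where BRCA1 was past 2-fold lower.

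BRCA2, which in meiosis loads DMC1 onto single-stranded ends, had the clearest meiotic level of the 8. It was 109 CPM (98.6–121) in mitotic-like, 193 (185–200.1) in premeiotic-like, 377 (364–391) in meiotic-like and 156 (149–163) in oocyte-like cells. Granulosa-like cells had 18.9 CPM (17.4–20.4), so meiotic-like cells were 20.0 times higher (18.4–21.8), and the highest named somatic class was pericyte-like at 53.1 CPM (37.4–73.2). Into the oocyte the BRCA2 log2 ratio was −1.28 (−1.36 to −1.19) over all cells, −1.46 in ending 2 and −0.88 in ending 1. The step from premeiotic-like to meiotic-like cells had a log2 ratio of 0.97 (0.90 to 1.05) and was nearly the same in the sets, 0.93 (0.83 to 1.03) in ending 1 and 0.95 (0.83 to 1.06) in ending 2. It was also present on both sides of 3000 detected genes: 137 against 234 CPM in cells up to that number and 206 against 437 CPM in cells above it. The level itself moved with depth, since meiotic-like cells of 1000 to 3000 UMIs had 190 CPM and those of 10000 to 20000 UMIs had 441 CPM, and the part of depth was not tested. In meiotic-like sub-cluster 7 (median 13984 UMIs) BRCA2 was 428 CPM (411–446), against 285 (266–305) in sub-cluster 1 (median 1950 UMIs). That difference was in ending 1, with a log2 ratio of 0.71 (0.56 to 0.86), and not in ending 2, with −0.04 (−0.28 to 0.21), where sub-cluster 1 has 49 cells.

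BRCA2 and BRCA1 differed in how they shared the steps. BRCA2 UMIs per BRCA1 UMI were 1.25 (1.07–1.46) in mitotic-like, 0.817 (0.776–0.861) in premeiotic-like, 1.34 (1.27–1.42) in meiotic-like and 1.51 (1.40–1.62) in oocyte-like cells, and 0.431 (0.393–0.474) in granulosa-like cells. For BRCA2 the earlier step had a log2 ratio of 0.82 (0.66 to 0.98) and the later one 0.97, with overlapping intervals, whereas for BRCA1 the earlier step was the larger.

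TP63 was an oocyte gene. It had 1001 UMIs in 447 cells, of which 736 UMIs were in oocyte-like cells. Its level there was 66.04 CPM (61.4–71.0), against 4.55 (3.22–6.24) in meiotic-like, 5.35 (4.20–6.73) in premeiotic-like and 1.17 (0.320–3.01) in mitotic-like cells, the last from 4 UMIs. Oocyte-like cells were 14.5 times higher (10.5–20.7) than meiotic-like cells, with a log2 ratio of 3.86 (3.39 to 4.37). Although the endings hold 20 and 664 oocyte-like cells, their levels were alike, at 55.0 and 66.3 CPM, and the ratio was 3.90 (2.70 to 5.05) in ending 1 and 3.56 (2.94 to 4.26) in ending 2. Meiotic-like and premeiotic-like cells overlap. Clustered again within the study's limit of 3000 detected genes the ratio was 2.96, and without the cells of highest doublet score it was 2.58, so its size depended on which cells were kept and its direction did not.

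TP63 was seen mostly in oocyte-like cells of high depth. A TP63 UMI was found in 216 of the 684 oocyte-like cells, 31.6% (28.1–35.2), with at most 16 UMIs in a cell. The cells with a UMI had a median of 37768 UMIs and those without a median of 1403. After thinning to 2000 UMIs the share was 10.6% (7.73–14.1) of 386 oocyte-like cells, with 298 left out, against 0.491% (0.134–1.25) of 814 meiotic-like and 0.191% (0.0767–0.392) of 3673 granulosa-like cells, with 466 and 1039 left out. Unthinned, granulosa-like cells had 0.700% at a median of 4931 UMIs and erythroid-like cells 0.135% at a median of 4065. Macrophage-like cells, a group that also held lymphocyte markers, had 3.66% (1.69–6.83). The CPM, which does not depend on the share, was 31.3 in oocyte-like cells up to 3000 detected genes and 70.0 above. In sub-cluster 6, led by ZP4 and ASTL, it was 27.3 CPM (17.1–41.4), and in sub-cluster 8 it was 69.1 (64.1–74.3).

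Outside oocytes the largest TP63 values were in small counts. Premeiotic-like sub-cluster 10, of which 214 of 217 cells end in 2, had 10.7 CPM (7.80–14.3), against 3.13 (2.00–4.65) in sub-cluster 4. Macrophage-like cells had 11.1 CPM (5.72–19.3) from 12 UMIs in 9 of 246 cells. That group also held lymphocyte markers, with CD3D at 318 CPM and NKG7 at 210 CPM. The oocyte gene FIGLA was 17.5 CPM (10.5–27.3) there and 10.6 (9.58–11.8) in granulosa-like cells, and the part of stray oocyte RNA was not tested. No TP63 UMI was found in 136 pericyte-like cells, which allows up to 4.31 CPM.

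A relative of TP63 and 2 genes near it in the pathway had smaller differences. TP73, of the same family of transcription factors, was between 1.56 and 3.37 CPM in every step. BBC3 (PUMA), a death gene that TP63 can turn on, was 5.87 CPM (4.65–7.30) in premeiotic-like, 10.3 (8.23–12.7) in meiotic-like and 13.4 (11.3–15.7) in oocyte-like cells, and the last pair overlap. MDM2, a ubiquitin ligase of the same pathway, was 124 CPM in both mitotic-like and oocyte-like cells and 67.8 and 71.9 CPM between them. From premeiotic-like to meiotic-like cells its sets went opposite ways, with log2 ratios of −0.70 in ending 1 and 1.11 in ending 2.

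**Figure D3:**
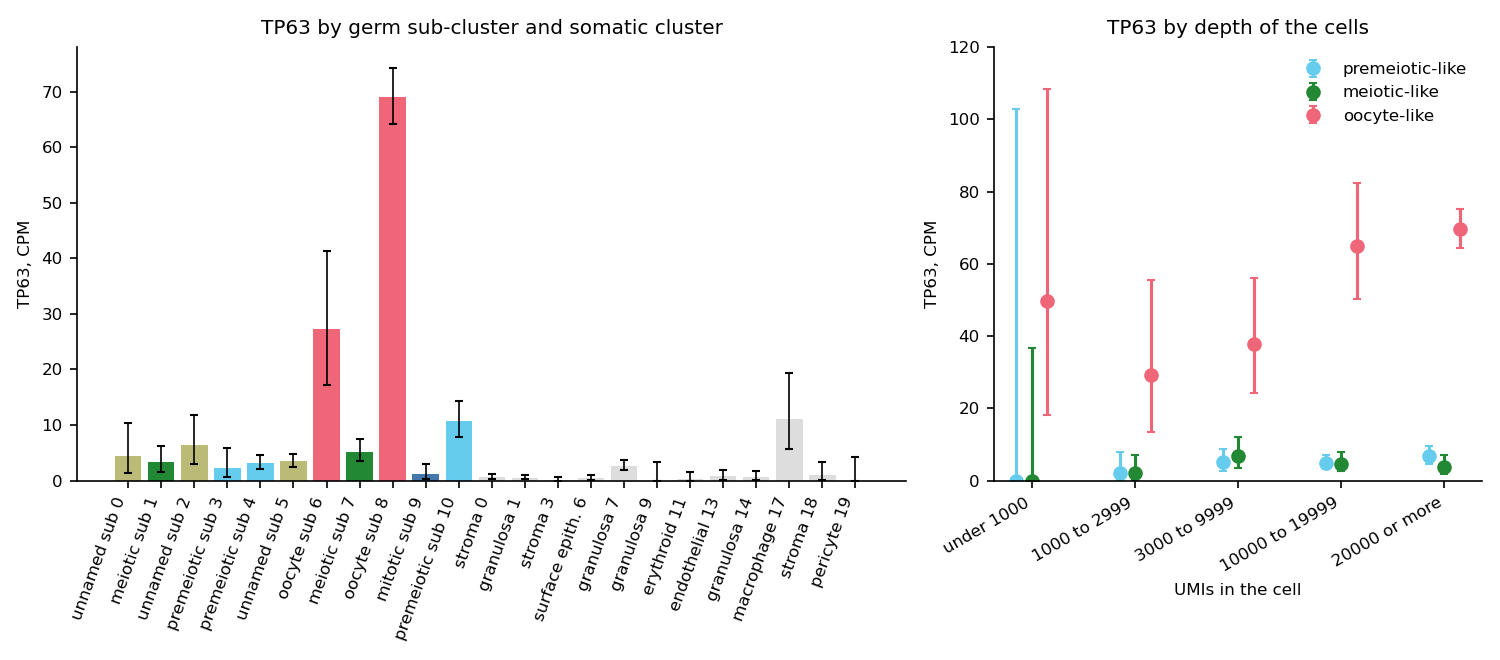
TP63 by germ cell sub-cluster and somatic cluster (left) and by depth of the cells (right), in CPM with exact 95% Poisson intervals. Both oocyte-like sub-clusters, at 27.3 and 69.1 CPM, stand above the other groups, and oocyte-like cells lie between 29.3 and 69.6 CPM in all 5 depth ranges while premeiotic-like and meiotic-like cells stay under 7 CPM.

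**Figure D4:**
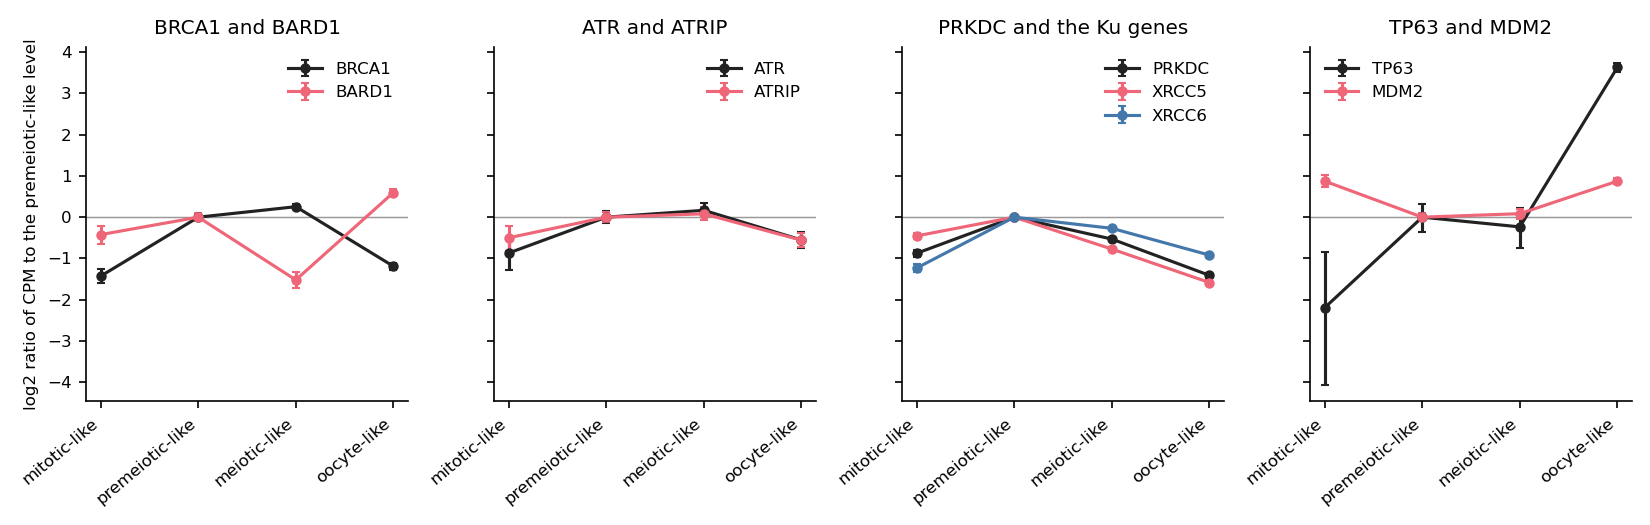
Level of BRCA1, ATR, PRKDC and TP63 and of their partners or relatives in each germ cell step, as log2 of the CPM over that in premeiotic-like cells, with lines for the exact 95% Poisson interval of each level. BARD1 moves against BRCA1 in meiotic-like and oocyte-like cells, ATRIP lies near ATR from premeiotic-like cells on, and TP63, at 66.04 CPM in oocyte-like cells against 5.35 in premeiotic-like cells, departs from MDM2.

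Counted against all genes, the set stood near the background in several steps. A gene was compared where it had at least 10 CPM in either group, and called past 2-fold. From mitotic-like to premeiotic-like cells, CHEK1, CHEK2 and BRCA1 were past 2-fold higher among 7 genes compared, where 19.8% of all 8643 genes compared were, and none was past 2-fold lower, where 10.5% were. From premeiotic-like to meiotic-like cells no member was past 2-fold higher, where 14.9% of 8742 genes were, and CHEK2 alone was past 2-fold lower of 7, where 13.1% were. From meiotic-like to oocyte-like cells, TP63 was past 2-fold higher of 8, where 17.3% of 8972 genes were, and ATM, BRCA1 and BRCA2 were past 2-fold lower, where 25% were. CHEK2 in the earliest of these comparisons and TP63 in the last met the minimum only through the group in which they were high and so had to differ. Between meiotic-like and granulosa-like cells, ATR, CHEK1, BRCA1, BRCA2 and PRKDC were past 2-fold higher of 7, where 28% of 9609 genes were, and none was past 2-fold lower, where 25.9% were. The median log2 ratio of the members was 0.87, 0.17, −0.80 and 1.39 in these comparisons, beside 0.32, 0.06, −0.21 and 0.11 over all genes.

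The wider pathway was read from 7 lists with 66 genes in the table. Of them, 17 of 50 compared were past 2-fold higher and 1 lower from mitotic-like to premeiotic-like cells, beside 19.8% and 10.5% of all genes compared. From there to meiotic-like cells 4 of 54 were higher and 7 lower, beside 14.9% and 13.1%, so the lower count was at the background. From there to oocyte-like cells 2 of 53 were higher and 21 lower, beside 17.3% and 25%. Each single list holds at most 11 genes compared, and the same shares over all genes apply to it. The counts and the shares both include genes that met the minimum only through the group in which they were high. Fanconi anemia genes, which act on crosslinks and stalled forks, had 5 of 9 past 2-fold higher in the earliest comparison, led by FANCL (12.3 to 56.0 CPM), then none either way, then 3 of 9 lower. Homologous recombination genes had 4 of 9 higher, then 1 of 9 lower (BARD1), then 1 higher (BARD1) and 3 lower. Genes of ATR activation had 2 of 10 higher, then 1 of 11 higher and 1 lower, then 1 higher and 4 lower; TIMELESS, a replication fork protein, was the higher of these in the oocyte, at 44.0 CPM from 10.5. Among end joining genes 1 of 6 was higher, then LIG4, the ligase of that route, alone of 8 (5.72 to 18.3 CPM), and then 3 of 8 were lower, LIG4 with 2.42 CPM in oocyte-like cells among them. In both of these later comparisons LIG4 met the minimum only through meiotic-like cells, where it was high, and so had to differ. Break sensors and mediators had none past 2-fold of 6, then 2 lower, then 3 lower. TP53BP1, the mediator that opposes resection, was 107, 87.9, 42.0 and 11.04 CPM over the 4 steps.

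Checkpoint effectors split. Of 8 compared, 3 were past 2-fold higher and 1 lower in the earliest comparison, where GADD45A, a gene that stress induces, went from 24.1 to 149 CPM. Then 3 of 8 were lower, among them PLK1 (95.4 to 27.1 CPM), the kinase that ends the checkpoint, and CDC25B (16.1 to 5.63 CPM), a phosphatase that starts mitosis. In the oocyte 2 of 7 were lower, the inhibitor WEE1 with 47.8 to 3.05 CPM. The meiotic adaptors HORMAD1 and HORMAD2, with TRIP13 in the same list, had 2 of 2 past 2-fold higher, then 2 of 3 higher, and then all 3 lower. HORMAD1, which recruits ATR to unpaired chromosome axes, was 10.9, 115, 499 and 39.5 CPM over the steps, and HORMAD2 was 74.7 CPM in meiotic-like cells and under 4 CPM in each other step. ATR itself, by contrast, differed by a log2 ratio of 0.17 between premeiotic-like and meiotic-like cells. HORMAD2, CDC25B into meiotic-like cells and WEE1 into the oocyte met the minimum only through the group in which they were high. These genes therefore had to differ in those comparisons.

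Cells that replicate also use CHEK1, BRCA1 and BRCA2, so the members were set beside 15 S phase genes. That list summed to 1042, 2429, 1884 and 2026 CPM over the 4 steps and to 402 CPM in granulosa-like cells. Its level in oocyte-like cells was carried by GINS2 (592 CPM) and PCNA (349 CPM), while MCM4 was 301 CPM in premeiotic-like and 67.9 in oocyte-like cells. BRCA2 went up by 0.97 on the log2 scale from premeiotic-like to meiotic-like cells while the S phase list went from 2429 to 1884 CPM and the 13 mitosis genes from 3988 to 2927 CPM. From mitotic-like to premeiotic-like cells, in contrast, CHEK1, BRCA1 and BRCA2 and both cycle lists were all higher, and the part of the cell cycle was not tested.

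A somatic group that divides gave the other reference. Stroma-like cluster 18, of 198 cells, had 5635 CPM of the mitosis list and 1607 CPM of the S phase list, against 219 to 429 and 402 to 465 CPM in the other 2 stroma-like clusters. There BRCA2 was 94.7 CPM (82.0–109), BRCA1 139.9 (124–157), CHEK1 92.3 (79.8–106), CHEK2 20.0 (14.4–27.0) and ATR 33.3 (26.0–42.1), higher than in the other stroma-like cells by 5.51, 4.56, 4.16, 2.59 and 2.31 times. ATM was 32.8 CPM (25.5–41.6) and 1.36 times below them. Meiotic-like cells were above this dividing group for BRCA2, 3.99 times (3.45–4.62), for BRCA1, 2.01 times (1.78–2.27), for PRKDC, 1.91 times (1.73–2.11), and for CHEK1, 1.74 times (1.49–2.03). For ATR they were level with it, at 1.03 times (0.789–1.35), and for CHEK2 below it, at 0.557 times (0.383–0.822).

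**Figure D5:**
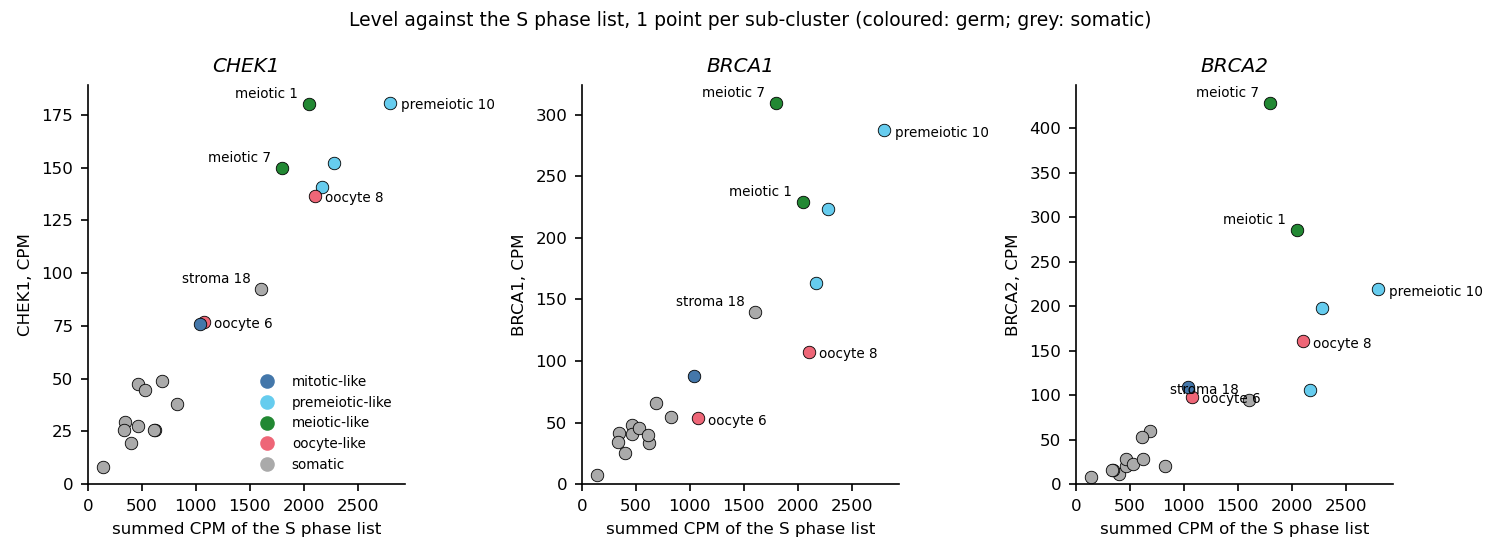
CHEK1, BRCA1 and BRCA2 against the summed level of 15 S phase genes, both in CPM, with 1 point for each of 20 named germ cell sub-clusters and somatic clusters. Dividing stroma-like cluster 18 has 1607 CPM of the S phase list with 94.7 CPM of BRCA2, and meiotic-like sub-cluster 7 has 428 CPM of BRCA2, the highest of all points.

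Within meiotic-like cells, members were compared between those with and without a UMI of FIGLA, the transcription factor that starts the oocyte program. In sub-cluster 7, 211 cells had FIGLA (median 15804 UMIs) and 150 did not (median 11222 UMIs). BRCA2 was 387 CPM (367–409) with FIGLA and 504 (472–537) without, and BRCA1 271 (254.5–289) and 380.2 (353–409). CHEK1 was 134 and 179 CPM, PRKDC 356 and 450.1, and ATM 41.9 and 63.6, all lower with FIGLA and with intervals apart. ATR, CHEK2 and TP63 overlapped, TP63 with 4.84 CPM with FIGLA and 5.83 without. The pattern was that of sub-cluster 7. Over all meiotic-like cells only CHEK1 (139 with FIGLA against 179 CPM without) and PRKDC (359 against 462 CPM) were lower with intervals apart, and BRCA2 was 381 against 374 CPM. In sub-cluster 1, where 77 cells had FIGLA, the intervals of all 8 members overlapped, and BRCA1 was 269 CPM (210–339) with FIGLA and 225 (207–244) without. Deeper cells show FIGLA more readily, and the part of depth was not tested. Sub-cluster 7 has 171 cells ending in 1 and 190 ending in 2. The FIGLA comparison was not made within each set, so the part of the set was not tested either.

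Among themselves the members fell into a tight group and a loose remainder. Over the 20 groups, Pearson correlation of log2(CPM + 10) was 0.959 between CHEK1 and BRCA1, 0.924 between CHEK1 and BRCA2 and 0.885 between ATR and BRCA1. ATM had 0.0877 with BRCA2 and −0.329 with TP63, and CHEK2 had 0.00892 with TP63. Groups share libraries and differ in depth, so these values are a description. Among 10378 genes, those most like each member were TTC19 (0.953) and SREK1 for ATM, USP1 (0.940), ITGB3BP and DBF4 for ATR, and PHAX (0.974), SUPT16H and an unnamed gene, ENSMFAG00000042142, for PRKDC. ZWILCH, a kinetochore gene, was the nearest to CHEK1 (0.970), followed by CENPS-CORT and RPA2, and it was also among the 3 nearest to BRCA1, after HIRIP3 (0.977) and ORC6. BRCA2 was nearest to CHAF1A (0.967), DLGAP5 and FANCI, the last a Fanconi anemia gene. CHEK2 had the weakest neighbours, ENSMFAG00000042931 (0.881), COQ10A and CHPT1. TP63 was nearest to RASL10A (0.965), ITGBL1 and KIAA2012, all 3 highest in oocyte-like sub-cluster 8.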

How the data were processed

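Droplet-based 3′ RNA libraries of fetal ovaries, 1 for each of 2 fetuses, were analysed together. The deposited values are raw counts of UMIs per gene and cell, made by the authors with Cell Ranger 3.0.2 on Macaca_fascicularis_5.0 and imported into Seurat. Members and lists were chosen with earlier results of these data known. All 20967 cells (148824177 UMIs; median 3756) were kept. The study's upper limit of 3000 genes, an alternative here, removes 22.3% of cells with 64.2% of UMIs. Ending 1 has 10621 cells (median 3130 UMIs), ending 2 10346 (median 4555.5). Scrublet called 0 doublets, so none were removed.

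Cells and then germ cells were clustered with Seurat 5.3.0 (R 4.3.3, Matrix 1.6.5): 2000 variable genes without members and pathway genes, 18 components, 20 neighbours, resolution 0.6. A name needed 3 markers at 1.5 times other cells (10 CPM added) in 5% of cells and was withheld where another class led. Shares have exact binomial intervals and ratios exact conditional intervals, at 95%; at 0 the limit is 3 counts. Named were the members, their partners, per comparison the 3 pathway genes of largest ratio each way (at least 10 CPM), and per member the 3 most alike genes (at least 20 CPM). TRIP13, MCM4, GINS2, PCNA and TP53BP1 were named after their values were seen. PALB2 and PMAIP1 were not analysed here, and some genes that these rules name are not reported here. Intervals came from scipy 1.17.1 under Python 3.11.15, doublet scores from scanpy 1.11.5, figures from matplotlib 3.10.9 and tables from pandas 2.3.3 with numpy 2.4.6. Scripts were tested on simulated data.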

Additional observations from a re-analysis of the deposited data

How the results depend on the processing

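Every value compares clusters of 1 pooled sample, and intervals cover counting error only. Alternatives were the 3000-gene limit, at most 20% mitochondrial UMIs, removal of the 8% of cells with the highest Scrublet scores (850 and 828), resolutions 0.4 and 1.0, 30 components, members kept among variable genes, integration of the sets, each set alone, the mean CPM of single cells, and thinning to 1000 or 2000 UMIs. Of 104 values of 8 ratios, 72 stayed within the main interval, 32 did not and 0 reversed a difference past 2-fold. Of these 8 ratios only those of CHEK2 and TP63 were past 2-fold, so no other could be counted as reversed. The sign of the main ratio was kept in 9 of 13 alternatives for CHEK1, 10 for ATR and 12 each for ATM and PRKDC. It was kept in all 13 for CHEK2, BRCA1, BRCA2 and TP63. Of 198 values of 16 other ratios, 58 moved. From premeiotic-like to meiotic-like cells, ATM (main 0.20) was 0.61 under the 3000-gene limit, 0.42 and −0.15 in endings 1 and 2, 0.48 as mean CPM, and 0.39 and 0.57 when thinned to 1000 and 2000 UMIs. ATR (0.17) was −0.10 under that limit, 0.44 in ending 2 and −0.084 thinned to 1000. CHEK1 (0.01) was 0.26 under the limit, −0.17 with high scores removed, −0.14 in ending 2, 0.15 as mean CPM and 0.16 thinned to 1000. CHEK2 (−1.40) was −2.58 and −0.91 thinned to 1000 and 2000. BRCA1 (0.25) was 0.43 under the limit, 0.11 with high scores removed, 0.12 in ending 2 and 0.40 thinned to 2000. BRCA2 (0.97) was 0.60 under the limit, 0.83 with high scores removed, 1.07 integrated, 0.75 as mean CPM, and 0.76 and 0.88 thinned. From meiotic-like to oocyte-like cells, TP63 (3.86) was 2.96 under the limit and 2.58 with high scores removed, and PRKDC (−0.88) was −0.78 with the mitochondrial limit, 0.11 and −0.53 in endings 1 and 2 and −1.07 thinned to 1000. The cause was not tested. The mitotic-like step was not compared in ending 2, which has 3 such cells. No paired analysis was possible because the samples are pooled in 1 table and no result comes from a test.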

Other observations

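Some somatic classes were close to each other. Between stroma-like, surface epithelium-like and endothelial-like cells BRCA1 was 39.8, 45.8 and 33.3 CPM, and PRKDC was 151, 177 and 152 CPM. Granulosa-like clusters differed more: PRKDC was 188 CPM (181–195) in cluster 1, of which 2141 of 2176 cells end in 1, and 125 (119–131) in cluster 7, of which 1086 of 1089 end in 2, so cluster and set cannot be told apart there. CDKN1A, a cell cycle inhibitor, was chosen after its values were seen. It was 45.3 CPM (43.1–47.6) in granulosa-like cells and low in every germ cell step, at 5.87 CPM in mitotic-like, 3.59 in premeiotic-like, 8.38 in meiotic-like and 6.01 (4.66–7.63) in oocyte-like cells.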
